A study of Mus musculus with 6 samples.

Results

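The Iroquois homeobox genes Irx1 to Irx6 were examined in R1 mouse embryonic stem cells differentiated with retinoic acid to day 6. The members were picked out of the table by gene symbol, and all 6 were found among the 24002 genes of the expression table. These cells, an established line, were maintained in 1000 U/ml LIF with 15% serum replacement, aggregated for 48 h in hanging drops, and the embryoid bodies were then kept in medium with retinoic acid, at 0.5 mM as the labels state, changed every day. Micromolar doses are common for retinoic acid, so the unit of this dose is in doubt. Polyadenylated RNA was sequenced in 3 samples of this condition, and accessible chromatin was profiled in 3 others. All samples share 1 line and 1 treatment, so levels can be described but no response to retinoic acid, and the labels do not say whether replicates were separate cultures. The samples are labelled as embryonic stem cells, but the defining pluripotency genes Nanog and Pou5f1 stood at only 0.0879 ± 0.0318 and 0.815 ± 0.0792 FPKM (SD, n = 3).

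Iroquois proteins are transcription factors with a homeodomain of the TALE class, the class of Meis and Pbx. Mammalian Irx genes lie in a pair of clusters, IrxA with Irx1, Irx2 and Irx4, and IrxB with Irx3, Irx5 and Irx6. In the neural tube, Irx3 is known as a repressor that opposes Olig2 and so helps to place the border between motor neuron progenitors and the V2 interneuron progenitors dorsal to them. Irx4 is best known from the ventricle of the heart, Irx5 from heart and retina, and Irx6 from retinal bipolar cells.

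Upstream sequences are shown for Irx2, Irx3 and Irx4, the only 3 members with a RefSeq promoter window at hand. Of the levels described next, Irx3 was high, Irx2 intermediate and Irx4 close to 0. Irx1, the highest member, has no window here. Each run is the 250 bases before the annotated start in the GRCm38.p6 build, 5′ to 3′ on the gene's strand, with CpG dinucleotides in capitals. Irx2 lies on the plus strand at chr13:72628570-72628819, Irx4 on the plus strand at chr13:73260247-73260496 and Irx3 on the minus strand at chr8:91801655-91801904.
Irx2: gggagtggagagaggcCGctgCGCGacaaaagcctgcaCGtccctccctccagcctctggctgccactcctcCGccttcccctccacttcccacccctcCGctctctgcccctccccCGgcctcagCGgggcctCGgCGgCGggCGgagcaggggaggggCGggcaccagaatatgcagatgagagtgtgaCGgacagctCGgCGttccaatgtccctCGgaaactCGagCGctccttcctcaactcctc
Irx4: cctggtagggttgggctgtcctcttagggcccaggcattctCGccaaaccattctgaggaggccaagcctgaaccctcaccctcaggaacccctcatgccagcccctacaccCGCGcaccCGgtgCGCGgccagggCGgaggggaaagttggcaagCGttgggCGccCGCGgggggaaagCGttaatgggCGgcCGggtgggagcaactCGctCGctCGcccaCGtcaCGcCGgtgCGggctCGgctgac
Irx3: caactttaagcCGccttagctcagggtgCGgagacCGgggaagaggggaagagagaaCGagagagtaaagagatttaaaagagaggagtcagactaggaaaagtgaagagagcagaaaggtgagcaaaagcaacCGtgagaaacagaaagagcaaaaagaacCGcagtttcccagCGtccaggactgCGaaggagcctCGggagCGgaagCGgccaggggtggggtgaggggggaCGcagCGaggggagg

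The Irx2 and Irx4 windows, from the same cluster, were alike in base composition. Irx2 had 68.4% G and C and 19 CpG dinucleotides, and Irx4 had 68.8% and 22. The Irx3 window had 56% and 13. Over all 32851 windows of this length, the medians were 52.4% and 6 CpG dinucleotides. Neither AGGTCA nor AGTTCA, hexamers known as half-sites of retinoic acid receptors, occurred on either strand in these 3 windows. Of all windows, 14% held AGGTCA, 11.8% held AGTTCA and 24.2% held at least 1 of them, so their absence here describes these letters only.

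Irx1, Irx3, Irx5 and Irx2 were expressed in every replicate, whereas Irx4 and Irx6 were close to 0. Expression is given as FPKM, a fragment number scaled to transcript length and library size, and a gene is called expressed here at 1 FPKM or more in all 3 replicates. By this rule 4 of 6 members (66.7%) were expressed, beside 50.7% of all genes, and with 6 members this share is not read as a property of the family. At 0.5 FPKM the count was also 4 of 6, beside 54.4% of all genes, and at 5 FPKM again 4 of 6, beside 35.7%. Each cluster held 2 expressed members and 1 near 0. These are bulk samples, so fewer cells with a transcript and less transcript per cell cannot be told apart.

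Irx1, a gene of the IrxA cluster on chromosome 13, was the highest member, at 25.7, 28.0 and 25.1 FPKM in replicates 1, 2 and 3. Irx3, of the IrxB cluster on chromosome 8, stood at 22.0, 19.4 and 19.9 FPKM. Irx5, the neighbour of Irx3 in IrxB, stood at 15.9, 15.3 and 17.2 FPKM. These 3 genes lay in adjoining bands that did not overlap, each with replicates close together. Irx2, the neighbour of Irx1 in IrxA, stood clearly lower at 6.35, 6.82 and 5.99 FPKM. The means were 26.3 ± 1.52 FPKM for Irx1, 20.4 ± 1.41 for Irx3, 16.1 ± 0.982 for Irx5 and 6.39 ± 0.412 for Irx2 (SD, n = 3).

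Irx4, the cardiac member of IrxA, was listed at 0.0138, 0.0646 and 0.0486 FPKM, with a mean of 0.0423 ± 0.0260 (SD, n = 3). Irx6, the last member of IrxB, was listed at 0.0209, 0.0650 and 0.0245 FPKM, with a mean of 0.0368 ± 0.0245. For both genes replicate 2 was the highest and replicate 1 the lowest, and their ranges overlapped. Replicate 1 was the most deeply sequenced library and replicate 2 the shallowest, with replicate 1 estimated at 1.56 times the depth of replicate 2 and 1.17 times that of replicate 3. Corrected for relative depth, the 3 Irx4 values stood to each other as 1 to 3 to 3, and the 3 Irx6 values as 1 to 2 to 1. The distance from whole multiples was at most 0.00144 for Irx4 and 0.00102 for Irx6. Such steps are those of small whole numbers of fragments, or of a common multiple of them, so neither value is precise, and the order of Irx4 and Irx6 was not detectable at this depth.

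**Figure D1:**
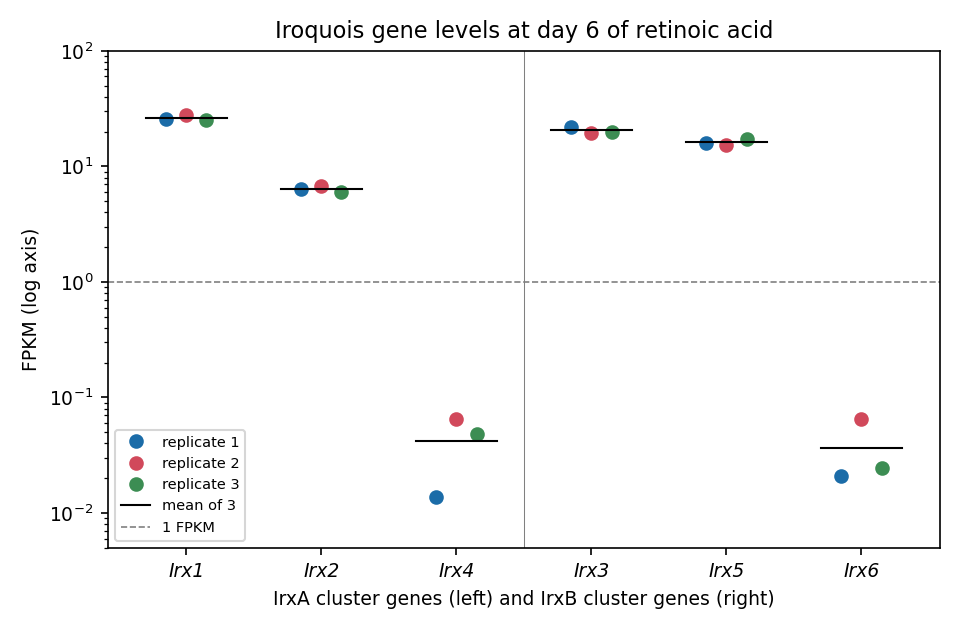
FPKM of the 6 Irx genes on a log axis, with a point for each of the 3 replicates and a bar for their mean. Irx1, Irx2, Irx3 and Irx5 lie between 5.99 and 28.0 FPKM, while every value of Irx4 and Irx6 is at or below 0.0650 FPKM.

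In the order of means, Irx1 exceeded Irx3 by a factor of 1.29, Irx3 exceeded Irx5 by 1.27, and Irx5 exceeded Irx2 by 2.52. Irx2 stood at 460, 106 and 123 times Irx4 in replicates 1, 2 and 3, and the Irx4 values behind these ratios are the imprecise ones given above. In these 4 of 5 neighbouring pairs the replicate ranges were apart, and the order was the same in 3 of 3 replicates. The steps at the top were small: the lowest Irx1 value was 25.1 FPKM against a highest Irx3 value of 22.0, and the lowest Irx3 value was 19.4 against a highest Irx5 value of 17.2. The remaining pair, Irx4 and Irx6, did not differ beyond its spread, since Irx4 was the higher in 1 of 3 replicates. No p-value is given for this order. The genes were measured in the same 3 libraries, and an exact two-sided test of 3 pairs cannot fall below 0.25. An unpaired one of 3 values against 3 cannot fall below 0.1.

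Within IrxA, Irx1 made up 80.3% of the summed FPKM, Irx2 19.5% and Irx4 0.129%. Within IrxB the sum was more evenly divided, with 55.8% from Irx3, 44.1% from Irx5 and 0.101% from Irx6. The clusters as wholes were similar, at 32.7 ± 1.93 FPKM for IrxA and 36.6 ± 1.66 for IrxB (SD, n = 3). By replicate, IrxA summed to 32.1, 34.9 and 31.2 FPKM and IrxB to 37.9, 34.7 and 37.1. The cluster ranges overlapped, and replicate 2 was the highest for IrxA and the lowest for IrxB.

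Irx1 and Irx2 kept nearly the same ratio in all libraries. Irx1 stood at 4.05, 4.11 and 4.19 times Irx2 in replicates 1, 2 and 3, with an SD of the log2 ratio of 0.03 (n = 3). Irx3 stood at 1.39, 1.27 and 1.16 times Irx5, with an SD of 0.13. For the 4 pairs of expressed members taken from different clusters this SD ranged from 0.15 to 0.18, so the Irx1 and Irx2 pair varied least of the 6 pairs. This rests on 3 libraries of 1 condition and was given no test. On the log2(FPKM + 1) scale, Irx1 exceeded Irx2 by 1.89 ± 0.02 and Irx3 exceeded Irx5 by 0.32 ± 0.13 (SD, n = 3).

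The members deviated from their own means in different replicates. Irx1 was highest in replicate 2, by 0.09 on the log2(FPKM + 1) scale, and lowest in replicate 3, at -0.06. Irx2 followed the same order, with 0.08 in replicate 2 and -0.08 in replicate 3. Irx3 was highest in replicate 1, by 0.11, and Irx5 in replicate 3, by 0.09, and both were lowest in replicate 2, at -0.07. Summed over the 4 expressed members, FPKM were 70.0, 69.5 and 68.2, a coefficient of variation of 1.32%, whereas single members had coefficients from 5.77% to 6.90%. A sum of genes that vary independently also tends to have a smaller coefficient than its parts, and whether members offset each other was not tested.

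The single-gene coefficients were above those of most genes of similar level. Among 2703 expressed genes within 1.5-fold of Irx3, 85.5% had a lower coefficient than its 6.90%, and their median was 3.70%. The corresponding shares were 81.2% of 2216 genes for Irx1, 78.1% of 3090 for Irx5 and 62.9% of 3036 for Irx2. These shares describe the 3 libraries, since an SD over 3 values is itself imprecise.

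Extraembryonic endoderm genes, known from the yolk sac, also varied between the libraries. All 12 markers listed for it were expressed, none was at 0, and their summed FPKM was 407, 549 and 557 in replicates 1, 2 and 3. In replicate 1 their median deviation was -0.30 on the log2 scale, and 11 of 12 were lowest there. None of the 4 expressed Irx genes was lowest in replicate 1, where 36.2% of all expressed genes were. The Irx deviations in replicate 1 were -0.03 for Irx1, -0.01 for Irx2, 0.11 for Irx3 and -0.02 for Irx5. The part of these cells in the Irx levels was not tested.

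**Figure D2:**
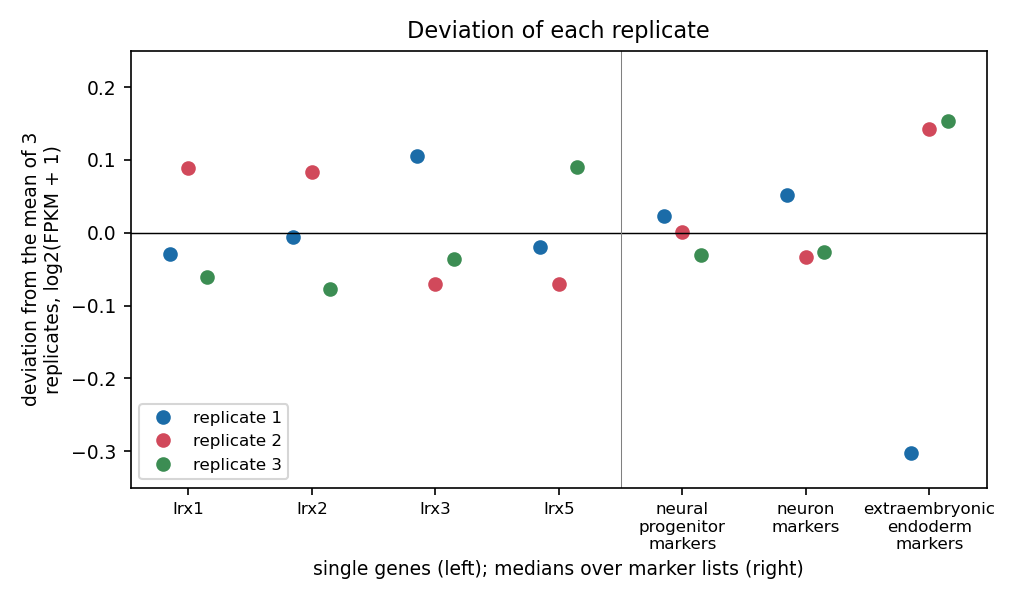
Deviation of each replicate from the mean of 3 on the log2(FPKM + 1) scale, for the 4 expressed Irx genes and as medians over 3 marker lists. The Irx points lie between -0.08 and 0.11, and the endoderm median in replicate 1 lies at -0.30.

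Among homeobox genes the expressed Irx members ranked from 29 to 72 of 207. Of 201 homeobox genes outside the family, 28 exceeded Irx1 in mean FPKM, 35 exceeded Irx3, 43 exceeded Irx5 and 68 exceeded Irx2. Irx4 and Irx6 ranked 165 and 167. Of these 201 genes, 95 (47.3%) were expressed, close to the 50.7% of all genes. Among all 24002 genes, Irx1 stood at percentile 89.7, Irx3 at 86.4, Irx5 at 83.0 and Irx2 at 66.9, with Irx4 at 31.6 and Irx6 at 30.9.

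**Figure D3:**
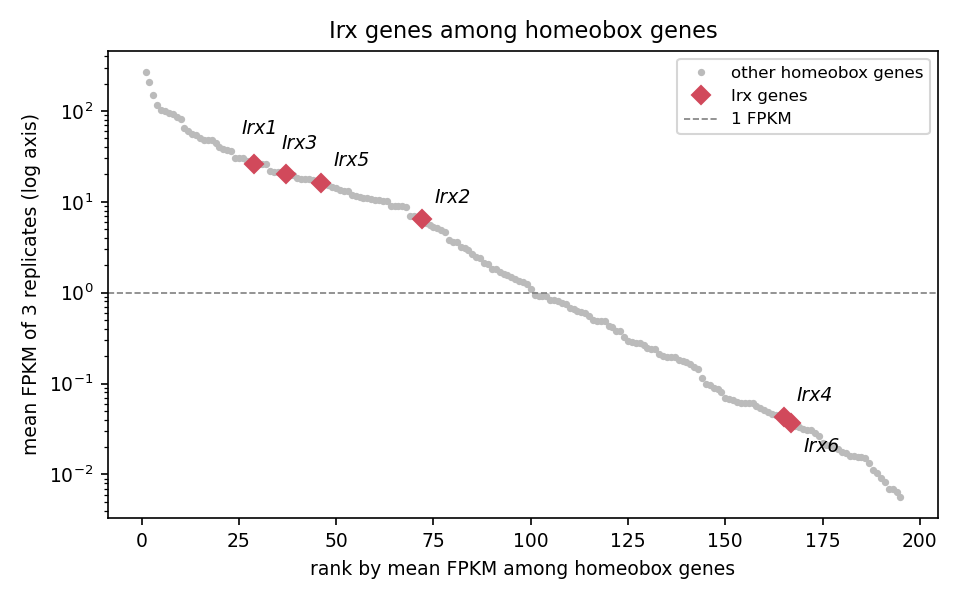
Mean FPKM of homeobox genes on a log axis against their rank, with the Irx genes as diamonds and 12 genes listed at 0 in every replicate left out. Irx1, Irx3, Irx5 and Irx2 rank 29, 37, 46 and 72, and Irx4 and Irx6 rank 165 and 167.

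The homeobox genes nearest in level were found by the Euclidean distance in log2(FPKM + 1) over the 3 replicates. Nearest to Irx1 were the Hox genes Hoxd4 (26.0 ± 0.323 FPKM; distance 0.09) and Hoxd3 (26.0 ± 0.295; 0.14), which set position along the body axis. Nearest to Irx3 were Cux1 (21.1 ± 0.826; 0.15), a gene with CUT repeats, and Hoxa6 (19.8 ± 1.32; 0.18). Irx5 lay nearest to the motor neuron gene Isl2 (15.3 ± 0.721; 0.15) and to Zeb1 (16.5 ± 0.888; 0.16). Irx2 lay nearest to Onecut2 (5.78 ± 0.209; 0.25) and Zhx2 (6.94 ± 0.276; 0.25), with Tgif1, the next gene, also at 0.25. All SD are over 3 replicates. With 1 condition this measure compares levels and says little of a shared pattern.

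Of the 12 other TALE genes, 11 (91.7%) were expressed, beside 50.7% of all genes, with a median of 27.1 FPKM. Pbx3 (117 ± 2.70 FPKM; SD, n = 3), Meis2 (95.4 ± 2.86) and Meis1 (65.1 ± 0.283), which encode DNA-binding partners of Hox proteins, lay above every Irx gene. Pbx2 (38.3 ± 0.960) and Meis3 (36.0 ± 0.617) did so too. Tgif2, whose product represses TGF-beta responses, stood at 18.3 ± 0.501, between Irx3 and Irx5, with a range of 17.7 to 18.7 that overlapped neither. Pknox2 (10.9 ± 0.399), Pknox1 (10.5 ± 0.407) and Tgif1 (6.79 ± 0.673) followed. Pbx4 stood at 3.16 ± 0.302, and Mkx, the gene closest to the Iroquois family in the TALE class, at 0.931 ± 0.127, above 1 FPKM in replicate 1 alone.

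Several factors that pattern the ventral and intermediate neural tube stood at levels similar to those of the Irx genes. Of 14 such genes, 9 (64.3%) were expressed, beside 50.7% of all genes, with a median of 1.69 FPKM over the list, beside 1.31 over all genes. Olig2, the factor of motor neuron progenitors that Irx3 is known to oppose, stood at 32.5, 34.8 and 33.3 FPKM, above Irx3 in every replicate. Irx3 amounted to 0.678, 0.556 and 0.596 times Olig2 in replicates 1, 2 and 3. Nkx6-1 (37.5 ± 1.56) and Nkx6-2 (28.1 ± 1.02), which span ventral progenitor domains, were of the same order (SD, n = 3). Pax6, a broader progenitor gene, stood at 11.5 ± 0.562 and was below Irx3 and Irx5 in every replicate.

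The other listed factors stood below Irx1, Irx3 and Irx5 in mean FPKM, and all but Sp8 and Foxa2 stood below Irx2 too. Nkx2-2 of the V3 domain stood at 1.61 ± 0.169 FPKM, so that Irx3 was 12.2 to 13.2 times higher (SD, n = 3). Foxn4, a gene of V2 progenitors, stood at 1.77 ± 0.182, Sp8 at 14.6 ± 1.04 and Prdm12 of the V1 domain at 1.20 ± 0.0754. Foxa2, a floor plate gene that also marks endoderm, stood at 6.47 ± 1.54 and was lowest in replicate 1. Dbx2 (0.665 ± 0.167) and Dbx1 (0.599 ± 0.0429), genes of the more dorsal V0 and V1 progenitors, were below 1 FPKM. Gsx2 (0.0634 ± 0.0331) and Nkx2-9 (0.0401 ± 0.00923) were near 0, and Gsx1 was listed at 0 in every replicate. Transcripts of Irx3 and Olig2 from the same cells and from different cells cannot be told apart in these libraries.

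**Figure D4:**
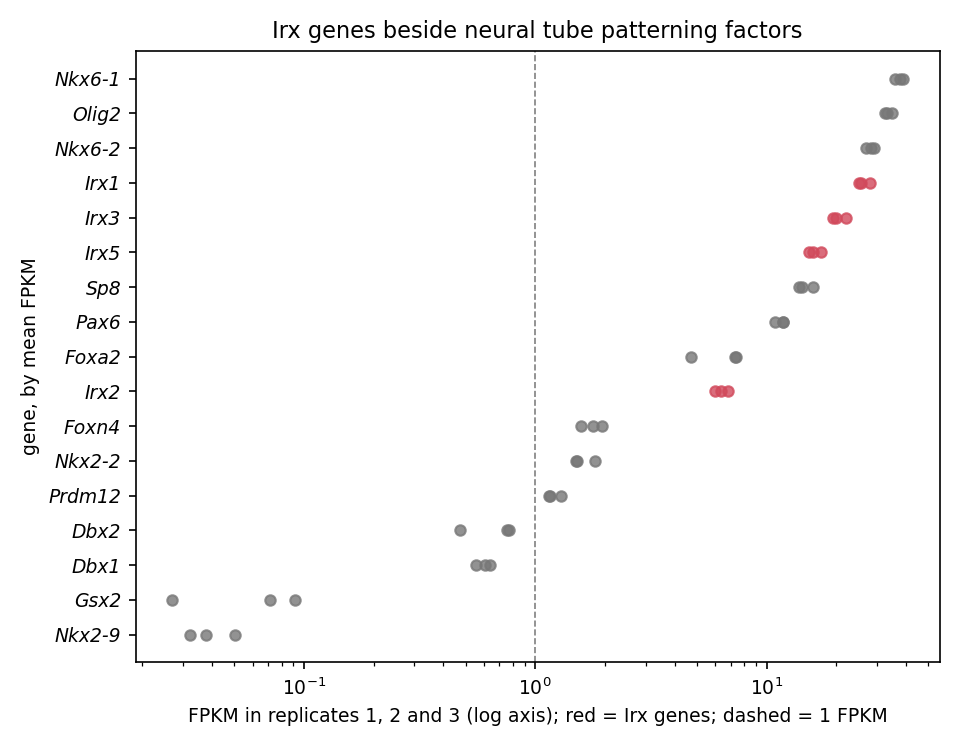
FPKM in 3 replicates, on a log axis, of the 4 expressed Irx genes (red) and of neural tube patterning factors (grey), ordered by mean, with Gsx1, listed at 0, left out. Irx1, Irx3 and Irx5 lie between Nkx6-2 at 28.1 and Sp8 at 14.6 FPKM.

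Of 19 listed genes from signalling pathways known to act on Irx expression, 11 (57.9%) were expressed, near the 50.7% of all genes. The list median was 3.70 FPKM, and an action of each gene on Irx expression was not tested. The highest were Ctnnb1 (199 ± 3.53 FPKM; SD, n = 3), which encodes the Wnt effector beta-catenin, and the retinoic acid receptor genes Rara (30.6 ± 0.647) and Rarb (30.1 ± 0.886). The lowest were Wnt3a, listed at 0, 0.0608 and 0, and Fgf8, listed at 0.0848, 0 and 0 FPKM in replicates 1, 2 and 3. No sample without retinoic acid enters these data, so a response of Irx genes to it could not be measured.

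Protein-coding genes beside the clusters ranged from near 0 to well above the Irx genes. The 4 protein-coding genes on each side of each cluster were taken in RefSeq order, and 15 of these 16 were in the table, of which 10 were expressed, a share not read as different from the 50.7% of all genes. Next to IrxB, Fto, which encodes an RNA demethylase and lies beside Irx3, stood at 41.5, 40.1 and 39.5 FPKM, above Irx3 in every replicate. Beyond Fto, Rpgrip1l, a gene of the ciliary transition zone, stood at 2.02 ± 0.176, Aktip at 18.1 ± 0.675 and Rbl2, a relative of the retinoblastoma gene, at 4.28 ± 0.203 (SD, n = 3). On the side of Irx6, the matrix metalloproteinase gene Mmp2 stood at 1.76 ± 0.0617 FPKM. The 3 genes after it, Lpcat2 (0.287 ± 0.112), Capns2 (0.125 ± 0.0741) and the noradrenaline transporter gene Slc6a2 (0.0246 ± 0.00435), were below 1 FPKM.

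Next to IrxA, the gene beside Irx1, the metalloproteinase gene Adamts16, stood at 0.179, 0.182 and 0.0966 FPKM, far below Irx1 in every replicate. Beyond it lay Ice1 (16.4 ± 0.321; SD, n = 3) and Med10, a Mediator subunit gene (30.2 ± 0.431). On the side of Irx4, which was close to 0, stood the respiratory chain gene Ndufs6 at 101, 103 and 110 FPKM. The mitochondrial ribosome gene Mrpl36 (20.7 ± 2.48) and Lpcat1 (8.15 ± 0.750) followed, and then the dopamine transporter gene Slc6a3 at 0.0165 ± 0.00684. Irx1, high, thus lay beside a gene below 1 FPKM, and Irx4, near 0, beside the highest of these neighbours. This did not hold for IrxB, where Irx3 lay beside Fto at 40.4 FPKM and Irx6, near 0, beside Mmp2 at 1.76 FPKM.

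The noncoding transcript Crnde, next to Irx5 in RefSeq, was expressed at 3.80, 4.28 and 4.16 FPKM. Irx5 stood at 4.17, 3.56 and 4.13 times Crnde in replicates 1, 2 and 3, and Crnde was lowest in replicate 1 while Irx5 was lowest in replicate 2. Gm20554, chosen after its values were seen because its RefSeq record overlaps that of Irx2, stood at 0.639 ± 0.0568 FPKM (SD, n = 3). The sources used here do not say whether strand was used in counting, so fragments shared between Gm20554 and Irx2 cannot be told apart.

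**Figure D5:**
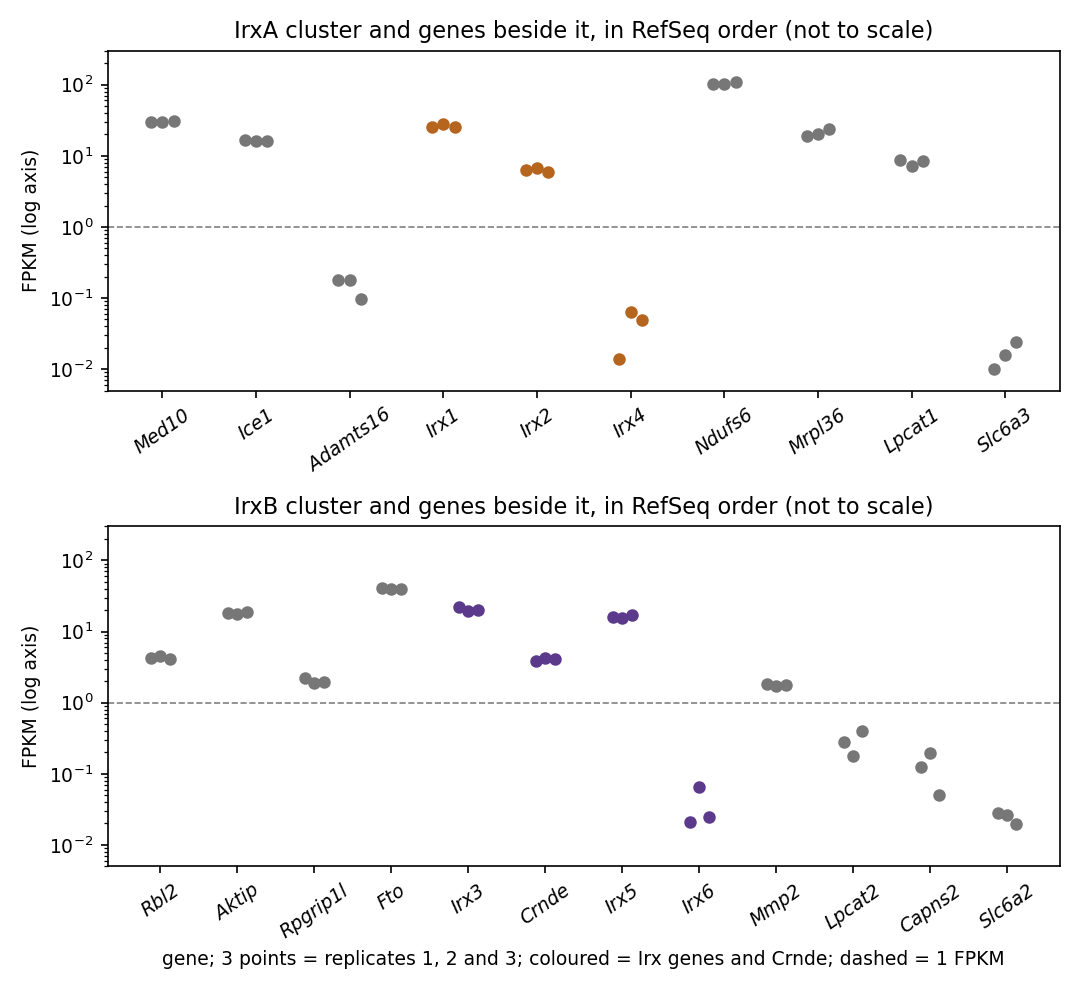
FPKM in 3 replicates on a log axis for IrxA and IrxB genes with Crnde (coloured) and the protein-coding genes beside them (grey), in gene order and not to scale. Irx4 and Irx6, at or below 0.0650 FPKM, are each the last member of their cluster, followed by Ndufs6 at 105 and Mmp2 at 1.76 FPKM.

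Markers of neural cells were high, and those of heart, where Irx4 is known, were low. Whether either cell type bears on the Irx levels was not tested. All 10 neural progenitor markers were expressed, led by Fabp7 (910 ± 8.47 FPKM; SD, n = 3), Vim (262 ± 4.85) and Sox2 (79.5 ± 4.57), with Pax6 and Prom1 (4.34 ± 0.302) the lowest. All 10 neuron markers were expressed, led by Tubb3 (645 ± 8.48), Gap43 (607 ± 23.3) and Stmn2 (420 ± 15.8), with Snap25 (49.3 ± 1.72) and Rbfox3 (23.6 ± 0.817) the lowest. Of 12 heart muscle markers none was expressed, and their summed FPKM ranged from 2.73 to 3.84. The highest were Ryr2 (0.899 ± 0.0332), Myl7 (0.824 ± 0.397) and Nkx2-5 (0.419 ± 0.0264). Myl7 stood at 0.368, 1.01 and 1.09 FPKM in replicates 1, 2 and 3, so it missed the threshold through replicate 1 alone. The ventricular gene Myl2 and the trabecular gene Bmp10 were listed at 0 in every replicate.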

How the data were processed

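Each of 3 RNA-seq replicates has a column in the deposited table. The deposited values were read as FPKM, since the submitters' processing notes name Bowtie, Cufflinks and the build mm9, without versions or settings. FPKM summed to 494246, 477760 and 524717 in replicates 1, 2 and 3; read totals, and so counting intervals, are unknown. Relative depth came from the most common ratio, within 0.004 in natural log units, of genes whose values lay from 0.001 to 0.1 FPKM in the 2 libraries compared, and was checked on simulated data, where a ratio of 1.5 was recovered as 1.5. Log2 differences used a pseudocount of 1 FPKM, which understates differences of low genes. Values were computed with Python 3.11.15 and pandas 2.3.3.

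The members and lists were chosen with earlier results of these data known. Named genes were the members, Crnde, the 4 protein-coding genes on each side of each cluster in RefSeq GRCm38.p6, the 2 nearest homeobox genes of each expressed member, the neural tube and TALE lists, and the 3 highest and 2 lowest of the signal and marker lists. Small exceptions are named where they occur, and a few listed genes are not reported here. The planned comparison of proteins was not done, and the accessible regions were not used here, because gene positions in mm9 were not at hand. No test was made, as the design holds 1 condition. Alternatives tried were a pseudocount of 0.1 FPKM, expression thresholds of 0.5 and 5 FPKM, filters on low values, upper quartile scaling and leaving out each replicate.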

Additional observations from a re-analysis of the deposited data

How the results depend on the processing

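Of 96 values recomputed under alternatives for 21 results, 82 moved by less than the spread between replicates (counts by less than 1.5 times), 14 moved further and 0 reversed. Leaving out a replicate cannot move a mean by as much as the SD over replicates. For levels and within-cluster differences those values were therefore bound to fall among the 82. The count of 4 expressed members and the 4 neighbouring pairs with ranges apart stayed the same under every alternative run for them. Leaving out a replicate could not lower either count, so those runs are no support for them. Upper quartile scaling changed the libraries little, since the upper quartiles were 15.9, 16.0 and 16.0 FPKM in replicates 1, 2 and 3. With a pseudocount of 0.1 FPKM, Irx1 exceeded Irx2 by 2.02, Irx2 exceeded Irx4 by 5.53 and Irx5 exceeded Irx6 by 6.90 (log2), against 1.89, 2.82 and 4.04. Among genes above 0 in a replicate, the percentiles of Irx1 to Irx6 were 86.6, 56.9, 82.3, 10.9, 77.8 and 10.0. Among genes at 0.1 FPKM or more in every replicate they were 83.5 for Irx1, 46.6 for Irx2, 78.2 for Irx3 and 72.6 for Irx5, and Irx4 and Irx6 were not in that set. These sets hold fewer low genes by construction. With 2 genes on each side of a cluster, 6 of 8 neighbours were expressed. No paired analysis was possible because the expression values come from 1 group, so there was no second group to pair by replicate number; ratios between genes within each replicate stand with the results. Irx4 and Irx6 rest on so few fragments that differences between their replicates are not interpretable.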

Other observations

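Markers of other organs in which Irx genes are known were mostly below 1 FPKM. Of 8 limb and lateral mesoderm markers none was expressed, with summed FPKM from 1.24 to 1.75, the highest being Twist1 (0.619 ± 0.238; SD, n = 3), Foxf1 (0.502 ± 0.115) and Hand2 (0.144 ± 0.0412). Of the retina markers, Crx, Grm6 and Cabp5 were listed at 0 in every replicate. Of the kidney tubule markers, Pax8 stood at 5.12 ± 0.249 FPKM, and Umod and Cdh16 were listed at 0. Of 6 lung epithelium markers, the cilia gene Foxj1 (2.61 ± 0.303) was expressed, and the surfactant genes Sftpc, Sftpb and Sftpa1 and the club cell gene Scgb1a1 were listed at 0.

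Of 8 surface ectoderm markers, the keratin genes Krt18 (38.1 ± 8.58 FPKM; SD, n = 3) and Krt8 (32.3 ± 8.92), which endoderm also uses, were expressed, and both were lowest in replicate 1. Of 6 gonad support cell markers, Sox9 (38.3 ± 0.416), also a gene of neural progenitors, and Inha (9.82 ± 0.953) were expressed, while Cyp19a1 stood at 0.0300 ± 0.00604 and Nr5a1 at 0.0134 ± 0.0142. The part of any of these cell types in the Irx levels was not tested.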
